A study of Homo sapiens with 6 samples.

Results

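The constitutive proteasome subunits are the genes that encode the standard proteasome, its caps and its assembly factors. They were chosen by symbol: NCBI Gene IDs were matched to names, and protein-coding symbols made of PSMA, PSMB, PSMC, PSMD, PSME, PSMF or PSMG and a number were kept, except PSMB8, PSMB9 and PSMB10, the catalytic subunits of the immunoproteasome. The rule uses no measured value and gave 45 genes of the 28395 listed. Both inhibitors of the study were compared with vehicle in A375 cells, an established human melanoma line with an activating BRAF mutation. Every library came from cells treated for 72 h and grown in RPMI medium, and each group holds 2 libraries. The groups were palbociclib at 1 µM, an inhibitor of the cell cycle kinases CDK4 and CDK6 that the titles call PD991; GSK3326595 at 500 nM, an inhibitor of the arginine methyltransferase PRMT5 that the titles call CTX; and the solvent DMSO at 0.01%. RNA was measured by sequencing of ribosomal RNA-depleted libraries, so the values describe mRNA and not protein or proteasome activity.

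The proteasome is the protease that destroys proteins tagged with ubiquitin. Its core is a barrel of stacked rings: outer rings of alpha subunits that gate the entrance and inner rings of beta subunits, some of which cut peptide bonds. A regulatory cap binds the core, its base of ATPases unfolding the substrate and its lid removing the ubiquitin chain, and dedicated chaperones build each piece before they join. When proteasome activity falls short, the transcription factor NFE2L1 raises the subunit genes together. In dividing cells the proteasome also removes cyclins and CDK inhibitors, the proteins that set the state of the kinases palbociclib targets.

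Both inhibitors left the subunit mRNAs close to their DMSO levels. Palbociclib lowered a subset made of alpha ring genes, core assembly chaperones, lid genes, 1 beta ring gene and 1 base gene, each by less than 1.5-fold. It raised PSMB5, the chymotrypsin-like catalytic subunit. GSK3326595 raised the ATPase gene PSMC4 and its chaperone PSMD10, known as gankyrin. All these calls against DMSO come from edgeR, and each was lost in at least 1 fit that left out a library. With palbociclib edgeR called 10 of the 43 tested subunits lower and DESeq2 5, where edgeR called 20.2% of all genes lower. Called in either direction were 25.6% of the subunits with palbociclib and 4.65% with GSK3326595, beside 39.5% and 18.8% of all genes. These shares depend on the model, as given below. The clearest separation between the inhibitors was in PSMD9 and PSMD10, chaperones of the same cap base, which lay on opposite sides when the inhibitors were set against each other.

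Total counts ranged from 16589153 to 20842099 per library, and the subunits took between 0.509% and 0.579% of them. Of the 45 genes, 43 passed the filter on low counts. The remaining members, PSMA8, the testis form of an alpha subunit, and PSMB11, the catalytic subunit of cortical thymus cells, were at 0 in all 6 libraries. Levels are given as CPM, read counts scaled to a common library size after TMM adjustment. A gene was called when edgeR's quasi-likelihood test gave a Benjamini-Hochberg adjusted p under 0.05 over the 16381 genes tested. The labels do not say that the libraries of a group came from separate cultures, so a p-value here reflects the scatter among these libraries, which could be technical only. Bulk RNA cannot tell apart a change in the share of cells in a given state from a change in mRNA per cell. The 7 melanocyte markers were held mostly by SOX10 and MITF, with summed levels of 284 and 311 CPM with palbociclib, 209 and 261 CPM with GSK3326595, and 228 and 257 CPM with DMSO. PMEL and MLANA stayed under 3 CPM, and TYR and DCT were at or near 0. Of the 5 melanocyte markers tested, edgeR called S100B higher with palbociclib against DMSO (log2 fold change 1.66 ± 0.188 SE, adjusted p = 3.15e-05) and MITF higher with GSK3326595 (0.49 ± 0.0901, adjusted p = 0.00324). With palbociclib set against GSK3326595, SOX10 (log2 fold change 0.63 ± 0.133, edgeR adjusted p = 0.00315) and S100B (1.54 ± 0.188, adjusted p = 0.000105) were higher and MITF lower (-0.50 ± 0.0898, adjusted p = 0.00124). A list of 12 markers of blood, epithelial, endothelial and fibroblast cells summed to 36.0 and 33.2 CPM with palbociclib, 35.2 and 31.3 CPM with GSK3326595, and 36.5 and 29.4 CPM with DMSO. Of these 12 genes PTPRC, CD3E, EPCAM, CDH1, CDH5 and DCN were under 1 CPM in every library, CD79A reached 1.17 CPM and KRT5 1.104 CPM, and PECAM1, KRT14, LUM and PDGFRB were above 1 CPM throughout. With palbociclib against DMSO, 2 of the 5 tested rose (KRT14 and LUM) and 2 fell (PDGFRB and PECAM1) in edgeR, which is 80.0% beside 39.5% of all genes, and the part of either marker list in the results was not tested.

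The libraries of a group differed from each other in a way that touched most subunits. Replicate 2 was above replicate 1 for 40 of the 43 tested subunits with palbociclib, 42 of 43 with GSK3326595 and 41 of 43 with DMSO. The median log2 difference between the libraries was 0.10 with palbociclib, 0.23 with GSK3326595 and 0.22 with DMSO. Over all genes tested, the shares above in replicate 2 were 49.3%, 50.2% and 49.1% in the same order, with medians at -0.00, 0.00 and -0.01. Most subunit values thus differed in the same direction between libraries of the same treatment. The called log2 differences below had sizes from 0.26 to 0.58. Single called genes could differ widely between libraries of a group, as PSMG1 did with DMSO (27.4 and 37.6 CPM). The part of this shift between replicates in the results below was not tested. Its size shows when libraries are left out: the median log2 fold change of the subunits with palbociclib against DMSO was -0.21 without DMSO replicate 1 and 0.01 without DMSO replicate 2.

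**Figure D1:**
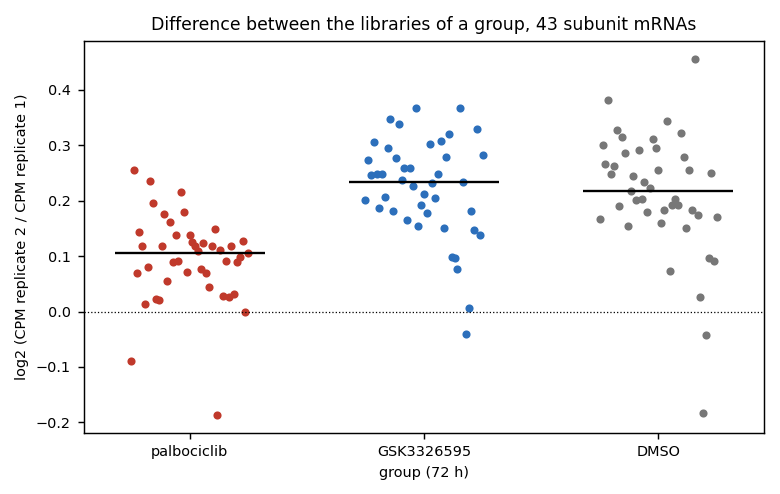
Each dot is 1 of the 43 tested subunit genes, and the vertical axis is the log2 ratio of its CPM in replicate 2 to that in replicate 1 of the same group; bars are medians. Most dots lie above 0 in all 3 groups, and the GSK3326595 and DMSO medians (0.23 and 0.22) are higher than that of palbociclib (0.10).

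With palbociclib against DMSO, edgeR called 11 of the 43 tested subunits (25.6%), 1 higher and 10 lower, where 39.5% of all genes were called, 19.3% higher and 20.2% lower. With GSK3326595 against DMSO it called 2 (4.65%), both higher, against a background of 18.8%, of which 8.58% were higher and 10.2% lower. No subunit was called lower there by edgeR on all libraries with TMM scaling and no replicate block, or by DESeq2. In that edgeR fit 4 were lower at an unadjusted p under 0.05. In edgeR 1 was called lower with library totals as the scaling and 6 with the replicate number as a block. Leaving out single libraries also gave lower calls in some fits. Set against each other, palbociclib and GSK3326595 differed in 14 subunits (32.6%), 1 higher and 13 lower with palbociclib, beside 34.8% of all genes, 16.6% higher and 18.2% lower. The 3 comparisons share libraries, so their counts are not independent. In all, 18 subunits were called at least once and 25 were not called in any comparison. With DESeq2 size factors in edgeR, PSMB2, PSMC6, PSMD11 and PSMG1 were no longer called with palbociclib against DMSO (adjusted p = 0.0617, 0.0698, 0.0616 and 0.0597). Between the inhibitors PSMA6, PSMB2, PSMC1, PSMC6, PSMD12 and PSMG1 were then no longer called (0.0564, 0.0595, 0.0621, 0.0555, 0.0651 and 0.0564). The shares above come from a fit with no replicate term, which counts the shift between replicates as scatter. Once that term was added, 51.2% of the subunits and 53.2% of all genes were called with palbociclib against DMSO. The values were 32.6% and 35.2% with GSK3326595 against DMSO, and 53.5% and 48.3% between the inhibitors. The low shares of called subunits against DMSO thus depend on the model, and pairing by replicate number is not established.

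The changes were small. In none of the 3 comparisons did a subunit reach 1.5-fold, a size that 27.6%, 16.6% and 23.5% of all genes reached with palbociclib against DMSO, with GSK3326595 against DMSO and between the inhibitors. Absolute log2 fold changes under 0.32 were found for 35, 40 and 31 of the 43 subunits in the same order, or 81.4%, 93.0% and 72.1%, beside 47.7%, 62.4% and 51.4% of all genes. The median log2 fold change of the subunits was -0.11 with palbociclib and 0.02 with GSK3326595 against DMSO, beside -0.02 and -0.00 for all genes. Between the inhibitors it was -0.15 for the subunits and -0.03 for all genes. Both palbociclib libraries lay above both DMSO libraries for 5 subunits and below them for 18, where 35.1% of all genes were above and 37.4% below. Both GSK3326595 libraries were above both DMSO libraries for 3 subunits and below them for 6, beside 27.6% and 29.7% of all genes. Between the inhibitors palbociclib was above without overlap for 6 and below for 18, beside 31.8% and 35.7%.

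**Figure D2:**
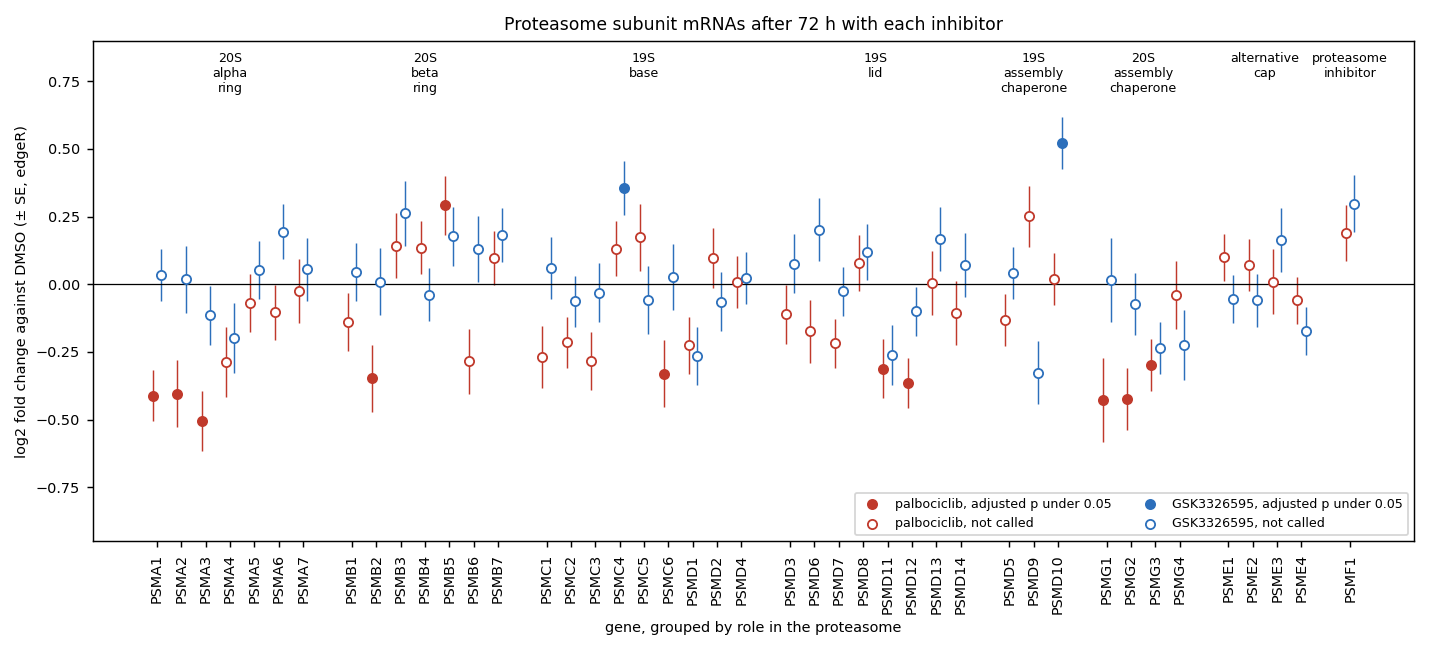
The vertical axis is the log2 fold change against DMSO (± SE, edgeR) of each tested subunit, grouped by role, with palbociclib in red and GSK3326595 in blue; filled circles have an adjusted p under 0.05. All 7 alpha ring genes are below 0 with palbociclib, and PSMD10 at 0.52 is the highest point with GSK3326595.

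The alpha ring was the part of the core with the most genes lowered by palbociclib. Of 7 tested genes 3 fell against DMSO (42.9%, beside 20.2% of all genes), PSMA1, PSMA2 and PSMA3, and 4 were not called. The median log2 fold change was -0.29, and all 7 estimates were below 0. Against DMSO, GSK3326595 gave no alpha ring call by edgeR or DESeq2 and 0 genes at an unadjusted edgeR p under 0.05, with a median of 0.03. PSMA3 (Gene ID 5684; chromosome 14, 58244843 to 58272004, GRCh38) had 57.3 and 60.1 CPM with palbociclib, 70.3 and 83.4 CPM with GSK3326595, and 75.5 and 90.8 CPM with DMSO. Both palbociclib libraries were below all 4 others, while GSK3326595 and DMSO overlapped. The log2 fold change was -0.50 ± 0.11 with palbociclib (SE, edgeR adjusted p = 0.00339) and -0.11 ± 0.11 with GSK3326595 (0.508), and -0.39 ± 0.111 between the inhibitors (0.0168). Without DMSO replicate 2 the palbociclib call against DMSO was lost (edgeR adjusted p = 0.0652). The call between the inhibitors was lost without palbociclib replicate 1 (0.118), palbociclib replicate 2 (0.065) or GSK3326595 replicate 2 (0.108).

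PSMA1 (chromosome 11, 14504876 to 14643662, GRCh38) showed the same order. It had 85.1 and 80.0 CPM with palbociclib, 104 and 120 CPM with GSK3326595, and 103 and 116 CPM with DMSO, again with both palbociclib libraries lowest. Its log2 fold change was -0.41 ± 0.0954 against DMSO (SE, edgeR adjusted p = 0.00492) and -0.44 ± 0.0956 against GSK3326595 (0.00365). The fall against DMSO was not called without DMSO replicate 2 (0.0779) or palbociclib replicate 2 (0.0641), and that against GSK3326595 without palbociclib replicate 2 (0.0514). PSMA2 had 86.8 and 104 CPM with palbociclib, 116 and 140 CPM with GSK3326595, and 113 and 139 CPM with DMSO. It fell by 0.40 on the log2 scale against DMSO (edgeR adjusted p = 0.0219) and by 0.42 against GSK3326595 (0.0203). Without palbociclib replicate 1 both PSMA2 calls were lost (0.203 and 0.197), the first also without DMSO replicate 2 (0.253) and the second without GSK3326595 replicate 2 (0.109). Part of the exons of PSMA1 and PSMA2 lies under other annotated protein-coding genes on the same strand, AC018523.2 over 53.2% and AC010132.3 over 52.5% of the transcript, so these counts are less certain.

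PSMA6 was called between the inhibitors alone, at 101 and 102 CPM with palbociclib, 116 and 132 CPM with GSK3326595, and 98.8 and 118 CPM with DMSO. Its log2 fold change of palbociclib over GSK3326595 was -0.30 ± 0.101 (SE, edgeR adjusted p = 0.0376). In edgeR the call was lost without palbociclib replicate 1 (0.171), palbociclib replicate 2 (0.149) or GSK3326595 replicate 2 (0.198), and DESeq2 did not make it (0.0783). A same-strand gene, AL121594.1, covers 81.0% of the PSMA6 transcript, and GENCODE lists 4 pseudogenes named after it. The other alpha ring genes, PSMA4, PSMA5 and PSMA7, had log2 fold changes of -0.29, -0.07 and -0.02 with palbociclib and -0.20, 0.05 and 0.05 with GSK3326595, and were not called.

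The promoter window of PSMA3, the subunit furthest below its DMSO level with palbociclib, is shown with its CCAAT boxes in capitals. It spans chr14:58244593-58244892 on the plus strand (RefSeq, GRCh38.p14), from 250 bases before to 50 bases after the annotated start. It holds the CCAAT sequence on each strand a few bases apart and no TGACNNNGC core, the short form of the antioxidant response element to which NFE2L1 and the small MAF proteins bind.
PSMA3: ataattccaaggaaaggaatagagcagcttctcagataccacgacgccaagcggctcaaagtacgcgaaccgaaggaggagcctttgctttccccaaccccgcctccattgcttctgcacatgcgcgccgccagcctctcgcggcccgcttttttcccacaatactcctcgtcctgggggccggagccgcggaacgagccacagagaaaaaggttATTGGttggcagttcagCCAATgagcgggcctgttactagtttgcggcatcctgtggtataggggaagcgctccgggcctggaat

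The beta ring did not move as 1 group. With palbociclib 1 of its 7 tested genes rose, PSMB5, 1 fell, PSMB2, and 5 were not called. That is 28.6% called beside 39.5% of all genes, with a median log2 fold change of 0.10 against DMSO. With GSK3326595 none was called against DMSO by edgeR or DESeq2, 1 was at an unadjusted edgeR p under 0.05 (PSMB3, higher) and the median was 0.13. PSMB5 (Gene ID 5693; chromosome 14, 23025851 to 23035220, GRCh38) encodes the chymotrypsin-like site, the main target of the drug bortezomib. It had 145 and 157 CPM with palbociclib, 126 and 153 CPM with GSK3326595, and 114 and 133 CPM with DMSO. Both palbociclib libraries were above both DMSO libraries, while those of GSK3326595 overlapped them. The log2 fold change was 0.29 ± 0.108 with palbociclib (SE, edgeR adjusted p = 0.0486) and 0.18 ± 0.108 with GSK3326595 (0.282). The palbociclib call was lost without DMSO replicate 1 (0.316), palbociclib replicate 1 (0.0852) or palbociclib replicate 2 (0.256), and without a filter on low counts (0.0605).

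The other catalytic genes behaved differently. PSMB6, the caspase-like site, had 65.0 and 73.4 CPM with palbociclib, 81.5 and 103 CPM with GSK3326595, and 77.1 and 91.4 CPM with DMSO. On the log2 scale palbociclib over GSK3326595 was -0.42 ± 0.121 (SE; adjusted p = 0.0192 in edgeR), and its difference from DMSO was -0.28 ± 0.121 (0.0811), which was not called. The call against GSK3326595 was lost without palbociclib replicate 1 (0.163) or GSK3326595 replicate 2 (0.15). PSMB7, the trypsin-like site, had 123 and 128 CPM with palbociclib, 122 and 144 CPM with GSK3326595, and 109 and 125 CPM with DMSO, and was not called in any comparison, with log2 fold changes of 0.10 ± 0.0999, 0.18 ± 0.1 and -0.08 ± 0.0998. The read counts of PSMB5 were 2.23 and 2.14 times those of PSMB6 in the palbociclib libraries, 1.55 and 1.48 times with GSK3326595, and 1.48 and 1.45 times with DMSO. This within-library ratio does not depend on scaling, and both palbociclib libraries were above all 4 others. It restates the changes of PSMB5 and PSMB6 given above, and PSMB5 had the highest log2 fold change of the subunits with palbociclib against DMSO.

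PSMB2, a structural beta subunit, had 128 and 147 CPM with palbociclib, 158 and 194 CPM with GSK3326595, and 156 and 194 CPM with DMSO. Both palbociclib libraries were lowest, and the log2 fold changes were -0.35 ± 0.124 against DMSO (SE, edgeR adjusted p = 0.0426) and -0.36 ± 0.124 against GSK3326595 (0.0427). The call against DMSO was lost without DMSO replicate 2 (0.417), palbociclib replicate 1 (0.275) or palbociclib replicate 2 (0.0587), and with DESeq2 (0.0597). That against GSK3326595 was lost without GSK3326595 replicate 2 (0.251), palbociclib replicate 1 (0.281) or palbociclib replicate 2 (0.0607), and with DESeq2 (0.0526). The uncalled structural genes PSMB1, PSMB3 and PSMB4 were at -0.14, 0.14 and 0.14 with palbociclib and 0.04, 0.26 and -0.04 with GSK3326595 on the log2 scale.

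PSMB5 was the 1 subunit called higher with palbociclib, and its promoter window is shown for that reason. RefSeq lists more than 1 window for the gene. The one shown spans chr14:23035171-23035470 on the minus strand (GRCh38.p14), with its CCAAT box in capitals, and it too holds no TGACNNNGC core. The other window, at chr14:23034851-23035150, holds none of the motifs searched, the CCAAT box included.
PSMB5: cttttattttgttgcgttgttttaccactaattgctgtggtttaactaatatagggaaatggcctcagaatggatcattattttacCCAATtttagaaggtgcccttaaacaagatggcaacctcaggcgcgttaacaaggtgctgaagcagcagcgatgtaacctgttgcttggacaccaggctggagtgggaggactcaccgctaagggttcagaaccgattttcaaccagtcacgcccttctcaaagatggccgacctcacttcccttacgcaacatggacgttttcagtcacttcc

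In the base of the cap, palbociclib lowered 1 of 9 genes, PSMC6 (11.1%, beside 20.2% of all genes). GSK3326595 raised 1, PSMC4 (11.1%, beside 8.58%). PSMC6 and PSMC4 encode ATPases of the unfolding ring. PSMC4 (Gene ID 5704; chromosome 19, 39971165 to 39981764, GRCh38) had 185 and 197 CPM with palbociclib, 205 and 240 CPM with GSK3326595, and 163 and 185 CPM with DMSO. Both GSK3326595 libraries were above the 4 others, among which palbociclib and DMSO overlapped. The log2 fold change was 0.36 ± 0.101 with GSK3326595 (SE, edgeR adjusted p = 0.0287) and 0.13 ± 0.1 with palbociclib (0.317). The GSK3326595 call was lost without DMSO replicate 1 (0.254), GSK3326595 replicate 2 (0.173), palbociclib replicate 1 (0.0517) or palbociclib replicate 2 (0.0519).

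PSMC6 had 30.8 and 34.9 CPM with palbociclib, 39.8 and 44.3 CPM with GSK3326595, and 36.8 and 45.7 CPM with DMSO. The palbociclib libraries were lowest, at a log2 fold change of -0.33 ± 0.123 against DMSO (SE, edgeR adjusted p = 0.0497) and -0.36 ± 0.123 against GSK3326595 (0.0408). Leaving out DMSO replicate 2 (0.474), palbociclib replicate 1 (0.29) or palbociclib replicate 2 (0.072) ended the call against DMSO, as did removing the filter on low counts (0.0569). Leaving out GSK3326595 replicate 2 (0.15), palbociclib replicate 1 (0.262) or palbociclib replicate 2 (0.0647) ended that against GSK3326595, and DESeq2 made neither call (0.111 and 0.0803). PSMC1 had 72.4 and 80.9 CPM with palbociclib, 87.7 and 105 CPM with GSK3326595, and 83.0 and 102 CPM with DMSO, and was called between the inhibitors (-0.33 ± 0.116, edgeR adjusted p = 0.0441) and not against DMSO (-0.27 ± 0.116, 0.0834). That call was lost without GSK3326595 replicate 2 (0.254), palbociclib replicate 1 (0.276) or palbociclib replicate 2 (0.075), and with DESeq2 (0.0783). GENCODE names 13 pseudogenes after PSMC1, and NRDE2 on the opposite strand overlaps 82.2% of its transcript, so its counts are uncertain.

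The remaining base genes were not called. The ATPase genes PSMC2, PSMC3 and PSMC5 had log2 fold changes of -0.21, -0.28 and 0.17 with palbociclib and -0.06, -0.03 and -0.06 with GSK3326595 against DMSO. The scaffold genes PSMD1 and PSMD2 had -0.23 and 0.10 with palbociclib and -0.27 and -0.06 with GSK3326595. PSMD4, which encodes a ubiquitin receptor of the cap, had 198 and 216 CPM with palbociclib, 197 and 223 CPM with GSK3326595, and 195 and 218 CPM with DMSO, at log2 fold changes of 0.01 ± 0.0964 and 0.02 ± 0.0965.

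In the lid, 2 of 8 genes fell with palbociclib (25%, beside 20.2% of all genes), PSMD11 and PSMD12, and 6 were not called. The median log2 fold change was -0.14. With GSK3326595 no lid gene was called against DMSO by edgeR or DESeq2, 1 was lower at an unadjusted edgeR p under 0.05 (PSMD11), and the median was 0.07. PSMD12 (Gene ID 5718; chromosome 17, 67337916 to 67366577, GRCh38), a lid scaffold gene, had 87.1 and 89.8 CPM with palbociclib, 101 and 112 CPM with GSK3326595, and 106 and 121 CPM with DMSO. The palbociclib libraries were below the 4 others, and GSK3326595 and DMSO overlapped. The log2 fold change with palbociclib was -0.37 ± 0.0919 against DMSO (SE, edgeR adjusted p = 0.0078) and -0.26 ± 0.0922 against GSK3326595 (0.0425). Against DMSO the call was lost without DMSO replicate 2 (0.133) or palbociclib replicate 1 (0.0749). Against GSK3326595 it was lost without any of 5 libraries, DMSO replicate 1 (0.0643), DMSO replicate 2 (0.0639), palbociclib replicate 1 (0.225), palbociclib replicate 2 (0.147) or GSK3326595 replicate 2 (0.216), and with DESeq2 (0.107), no filter on low counts (0.0594) or a fit of the 2 groups alone (0.0638).

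PSMD11 encodes the lid subunit that clamps the cap to the alpha ring. It had 186 and 195 CPM with palbociclib, 176 and 218 CPM with GSK3326595, and 220 and 253 CPM with DMSO, so that both inhibitors lay below DMSO without overlap. The log2 fold change was -0.31 ± 0.11 with palbociclib (SE, edgeR adjusted p = 0.0407) and -0.26 ± 0.11 with GSK3326595 (0.12), the second not called. The palbociclib call was lost without DMSO replicate 2 (0.327), palbociclib replicate 1 (0.206) or palbociclib replicate 2 (0.117), and with DESeq2 (0.0644). PSMD6 had 89.3 and 96.2 CPM with palbociclib, 111 and 130 CPM with GSK3326595, and 92.1 and 117 CPM with DMSO. It was called between the inhibitors (-0.37 ± 0.116, edgeR adjusted p = 0.0254), a call lost without palbociclib replicate 1 (0.168), palbociclib replicate 2 (0.0684) or GSK3326595 replicate 2 (0.132). PSMD14, the lid deubiquitinase that strips the chain from the substrate, had 108 and 120 CPM with palbociclib, 115 and 143 CPM with GSK3326595, and 111 and 134 CPM with DMSO and was not called, nor were PSMD3, PSMD7, PSMD8 and PSMD13.

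**Figure D3:**
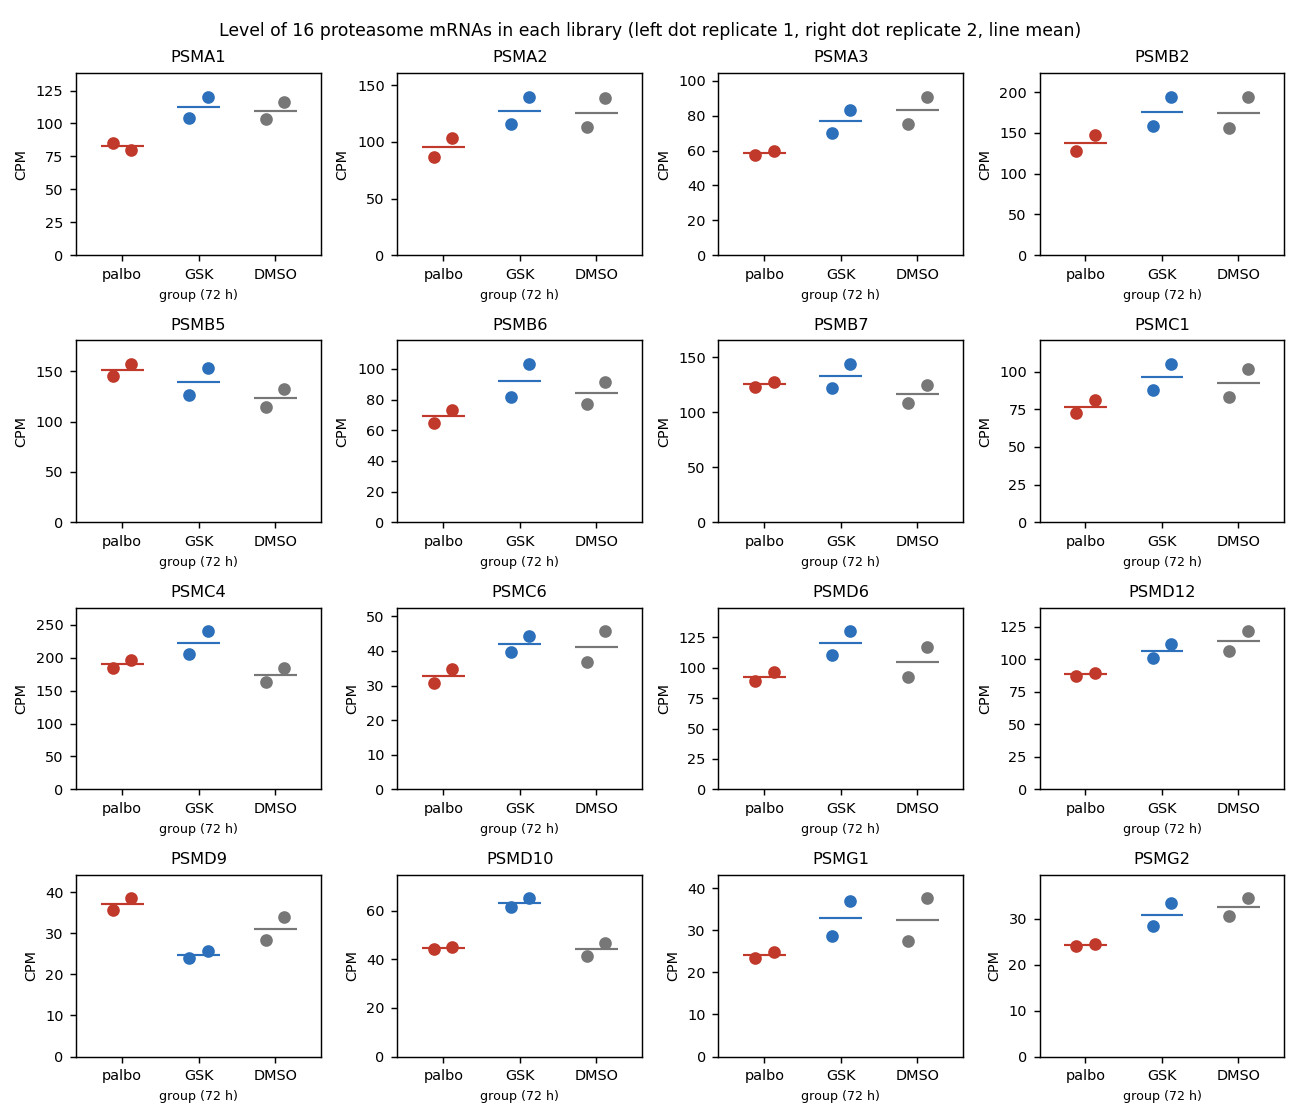
Each panel gives the CPM of 1 subunit mRNA in the 6 libraries, with replicate 1 left and replicate 2 right in each group and a line at the mean of 2 libraries. In the PSMA3 panel both palbociclib libraries (57.3 and 60.1 CPM) are below all others, and in the PSMD10 panel both GSK3326595 libraries (61.7 and 65.1 CPM) are above all others.

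The chaperones that build the base showed the subunits' clearest difference between the inhibitors. PSMD10 (Gene ID 5716; chromosome X, 108084207 to 108091542, GRCh38) encodes gankyrin, an ankyrin repeat protein that holds the ATPase PSMC4 before the cap is complete and also binds CDK4 and MDM2. It had 44.3 and 45.2 CPM with palbociclib, 61.7 and 65.1 CPM with GSK3326595, and 41.3 and 46.9 CPM with DMSO. The GSK3326595 libraries stood above the 4 others, and palbociclib lay within the range of DMSO. With GSK3326595 PSMD10 rose against DMSO by a log2 of 0.52 ± 0.0967 (SE, edgeR adjusted p = 0.0033), and with palbociclib the difference was 0.02 ± 0.0972 (0.889). Between the inhibitors palbociclib was lower, at -0.50 ± 0.0964 (0.00189). The rise against DMSO was not called without DMSO replicate 1 (0.0527), while the difference between the inhibitors was called under all 13 alternatives run. GENCODE names 3 pseudogenes after PSMD10.

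PSMD9 (Gene ID 5715; chromosome 12, 121888790 to 121918297, GRCh38) encodes a PDZ domain chaperone that holds the ATPases PSMC3 and PSMC6. It had 35.6 and 38.5 CPM with palbociclib, 23.9 and 25.6 CPM with GSK3326595, and 28.3 and 33.8 CPM with DMSO. The 3 groups did not overlap, with palbociclib highest and GSK3326595 lowest. Palbociclib was above GSK3326595 by a log2 of 0.58 ± 0.115 (SE, edgeR adjusted p = 0.00228), a call kept under all 13 alternatives, and the largest difference of a subunit in the 3 comparisons. Against DMSO neither palbociclib (0.25 ± 0.113, edgeR adjusted p = 0.0948) nor GSK3326595 (-0.33 ± 0.116, 0.0698) was called. Same-strand genes, AC069503.2 and WDR66, overlap 28.2% and 15.7% of the PSMD9 transcript. Read counts of PSMD10 were 1.245 and 1.175 times those of PSMD9 in the palbociclib libraries, 2.58 and 2.54 times in the GSK3326595 libraries, and 1.46 and 1.39 times in the DMSO libraries. PSMD10 and PSMD9 had the lowest and highest log2 fold changes of the subunits between the inhibitors. The gap between the inhibitors in this ratio therefore follows from the choice of the pair. PSMD5, the third base chaperone in the list, had 66.7 and 58.7 CPM with palbociclib, 68.3 and 73.1 CPM with GSK3326595, and 65.0 and 72.3 CPM with DMSO, and was not called.

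The promoter windows of PSMD9 and PSMD10 are shown because these chaperones moved apart. They span chr12:121888540-121888839 on the plus strand for PSMD9 and chrX:108091493-108091792 on the minus strand for PSMD10 (RefSeq, GRCh38.p14). Capitals mark the TGACNNNGC core of the antioxidant response element, the ETS core CCGGAAG, the E-box CACGTG, the GC box GGGCGG and the CCAAT box, each on either strand, with the ETS core and 1 TGACNNNGC core side by side and not overlapping in PSMD9. PSMD9 holds TGACNNNGC cores, GC boxes, an ETS core and an E-box, whereas PSMD10 holds a CCAAT box and none of the others. A match is a description of the sequence and not a binding site.
PSMD9: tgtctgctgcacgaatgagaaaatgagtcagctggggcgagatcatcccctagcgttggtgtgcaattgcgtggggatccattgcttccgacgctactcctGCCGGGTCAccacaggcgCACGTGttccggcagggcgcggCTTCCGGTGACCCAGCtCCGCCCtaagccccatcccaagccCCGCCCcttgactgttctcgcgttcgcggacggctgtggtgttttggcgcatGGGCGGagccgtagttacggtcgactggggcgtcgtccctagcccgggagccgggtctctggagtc
PSMD10: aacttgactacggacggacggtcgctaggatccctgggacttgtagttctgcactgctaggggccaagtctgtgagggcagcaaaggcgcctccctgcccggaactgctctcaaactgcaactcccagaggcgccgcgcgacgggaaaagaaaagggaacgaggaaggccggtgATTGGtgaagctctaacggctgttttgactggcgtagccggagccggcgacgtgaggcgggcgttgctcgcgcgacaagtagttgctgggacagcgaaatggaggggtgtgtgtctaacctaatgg

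Of the 4 chaperones that build the core, edgeR called 3 lower with palbociclib against DMSO (75%), beside 20.2% of all genes. DESeq2 called 1 of them lower. PSMG1 and PSMG2 form a dimer that starts the alpha ring, and PSMG3 and PSMG4 form a second dimer that supports it. PSMG2 had 23.96 and 24.39 CPM with palbociclib, 28.4 and 33.4 CPM with GSK3326595, and 30.5 and 34.4 CPM with DMSO. Its palbociclib libraries were below the 4 others, with a log2 fold change of -0.42 ± 0.115 against DMSO (SE, edgeR adjusted p = 0.0114) and -0.35 ± 0.115 against GSK3326595 (0.0331). The call against DMSO was lost without DMSO replicate 2 (0.118), palbociclib replicate 1 (0.0685) or palbociclib replicate 2 (0.0576). The call against GSK3326595 was lost without palbociclib replicate 1 (0.147), palbociclib replicate 2 (0.12) or GSK3326595 replicate 2 (0.217), and with DESeq2 (0.0876). PSMG2 overlaps CEP76 on the opposite strand over 17.3% of its transcript.

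PSMG1 had 23.4 and 24.9 CPM with palbociclib, 28.7 and 37.0 CPM with GSK3326595, and 27.4 and 37.6 CPM with DMSO. The palbociclib libraries were again lowest, but the libraries within each other group were far apart. The log2 fold change was -0.43 ± 0.156 against DMSO (SE, edgeR adjusted p = 0.0459) and -0.44 ± 0.156 against GSK3326595 (0.0445). Without palbociclib replicate 1 (0.178 and 0.181) or palbociclib replicate 2 (0.104 and 0.105) both calls were lost, as was the first without DMSO replicate 2 (0.496) and the second without GSK3326595 replicate 2 (0.264), and DESeq2 made neither (0.0724 and 0.0623). PSMG3 had 35.4 and 38.4 CPM with palbociclib, 39.1 and 38.0 CPM with GSK3326595, and 45.0 and 45.8 CPM with DMSO, so both inhibitors lay below DMSO. It fell with palbociclib (-0.30 ± 0.0956, edgeR adjusted p = 0.0263) and was at -0.24 ± 0.0961 with GSK3326595 (0.11), not called. The palbociclib call was lost without DMSO replicate 1 (0.0759), DMSO replicate 2 (0.139), palbociclib replicate 1 (0.212) or palbociclib replicate 2 (0.0691), and with DESeq2 (0.0892). PSMG4, the least abundant by CPM of the tested chaperones, had 14.4 and 14.7 CPM with palbociclib, 12.8 and 12.8 CPM with GSK3326595, and 15.9 and 14.0 CPM with DMSO and was not called.

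The alternative caps and the proteasome inhibitor PSMF1 gave no call in any comparison with edgeR or DESeq2, and among the 4 caps 0 were at an unadjusted edgeR p under 0.05. PSME1 and PSME2, partners in the interferon-induced cap, had log2 fold changes of 0.10 and 0.07 with palbociclib and -0.05 and -0.06 with GSK3326595. PSME3, the nuclear relative of that cap, was at 0.01 and 0.16. PSME4, the large nuclear activator, had 239 and 239 CPM with palbociclib, 210 and 231 CPM with GSK3326595, and 241 and 257 CPM with DMSO. PSMF1 had 84.4 and 90.8 CPM with palbociclib, 85.1 and 104 CPM with GSK3326595, and 72.2 and 81.3 CPM with DMSO. Both inhibitors were above DMSO without overlap, at log2 fold changes of 0.19 ± 0.105 (SE, edgeR adjusted p = 0.169) and 0.30 ± 0.105 (0.0684).

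Because most subunits shifted together between replicates, ratios of read counts taken inside each library were also compared. The summed alpha ring counts were 0.722 and 0.722 of the summed beta ring counts with palbociclib, 0.815 and 0.811 with GSK3326595, and 0.827 and 0.872 with DMSO. The palbociclib libraries were below the 4 others, and the 3 groups did not overlap. The ratio of PSMA3 to PSMB5 was 0.395 and 0.382 with palbociclib, 0.557 and 0.545 with GSK3326595, and 0.662 and 0.684 with DMSO. PSMA3 and PSMB5 had the lowest and highest log2 fold changes of the subunits with palbociclib against DMSO. The gap between those groups in this ratio therefore follows from the choice of the pair. PSMB5 against PSMB7 gave 1.18 and 1.23 with palbociclib, 1.04 and 1.06 with GSK3326595, and 1.05 and 1.06 with DMSO. These ratios compare counts and not molecules, since the genes differ in length. They restate changes of genes given above. They are given as values, and no test was run on them.

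**Figure D4:**
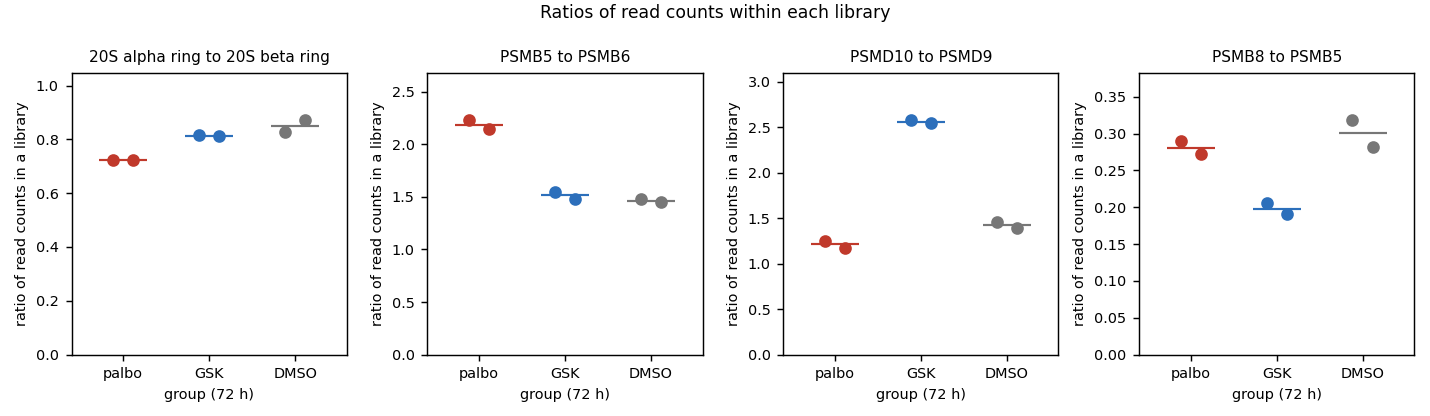
Each panel gives a ratio of read counts inside each library, with replicate 1 left and replicate 2 right in each group and a line at the mean of 2 libraries. The alpha to beta ring ratio is lowest with palbociclib (0.722 in both libraries), and the PSMD10 to PSMD9 ratio is highest with GSK3326595 (2.58 and 2.54).

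Windows of the same kind were available for 39 of the 45 subunits and were searched on both strands, beside 27305 genes of all kinds. A gene counted as holding a motif if any of its windows did, and some genes, such as PSMB5, have more than 1. The TGACNNNGC core was in 14 of the 39 subunit genes (35.9%) and in 16.1% of all genes. The ETS core CCGGAAG was in 15 (38.5%) against 12.2%, and the GC box GGGCGG in 27 (69.2%) against 48.3%. The CCAAT box was in 19 (48.7%) against 39.7% and the E-box CACGTG in 3 (7.69%) against 8.77%. Of the 9 subunits lower with palbociclib that have a window, 3 held the TGACNNNGC core, 4 the CCAAT box, 2 the ETS core, 7 the GC box and 0 the E-box.

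Genes around the proteasome were read from 3 lists of 37 genes in all. With palbociclib 8 rose and 7 fell against DMSO (40.5% called), with GSK3326595 4 rose and 5 fell (24.3%), and between the inhibitors 9 were higher and 5 lower with palbociclib (37.8%), so their shares were near the backgrounds given above. In the list of 11 other proteasome genes the immunoproteasome subunits separated the inhibitors. PSMB8, which replaces PSMB5, had 42.1 and 42.7 CPM with palbociclib, 25.97 and 29.16 CPM with GSK3326595, and 36.3 and 37.5 CPM with DMSO. The 3 groups did not overlap. It fell with GSK3326595 against DMSO (log2 fold change -0.42 ± 0.102, edgeR adjusted p = 0.0144) and was higher with palbociclib than with GSK3326595 (0.62 ± 0.101, 0.000676), while palbociclib against DMSO was not called (0.20 ± 0.0992, 0.127). PSMB10, which replaces PSMB7, had 33.1 and 31.1 CPM with palbociclib, 22.1 and 20.9 CPM with GSK3326595, and 27.1 and 23.7 CPM with DMSO. It rose with palbociclib (0.34 ± 0.109, edgeR adjusted p = 0.0266) and differed between the inhibitors (0.58 ± 0.111, 0.0019). PSMB9, which replaces PSMB6, had 12.4 and 14.7 CPM with palbociclib, 12.2 and 12.2 CPM with GSK3326595, and 13.3 and 14.4 CPM with DMSO and was not called.

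Beside their constitutive counterparts, PSMB8 counts were 0.291 and 0.272 of PSMB5 counts with palbociclib, 0.206 and 0.191 with GSK3326595, and 0.318 and 0.282 with DMSO. PSMB10 counts were 0.270 and 0.243 of PSMB7 counts with palbociclib, 0.182 and 0.145 with GSK3326595, and 0.249 and 0.189 with DMSO. PSMB9 counts were 0.191 and 0.200 of PSMB6 counts with palbociclib, 0.149 and 0.119 with GSK3326595, and 0.172 and 0.158 with DMSO. GSK3326595 was lowest in each of these ratios, without overlap with either other group. The fall of PSMB8 with GSK3326595 was not called without DMSO replicate 2 (edgeR adjusted p = 0.0718) or GSK3326595 replicate 1 (0.0699). The rise of PSMB10 with palbociclib was not called without DMSO replicate 2 (0.16), palbociclib replicate 1 (0.157) or palbociclib replicate 2 (0.0683), or with library totals as the scaling (0.0508).

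Also in that list, the adaptor gene ECPAS had 289 and 278 CPM with palbociclib, 288 and 271 CPM with GSK3326595, and 356 and 364 CPM with DMSO. It fell with both inhibitors (-0.34 ± 0.0855, edgeR adjusted p = 0.00719, and -0.36 ± 0.0856, 0.0126). Leaving out DMSO replicate 2 ended both calls (0.062 and 0.0695), palbociclib replicate 1 (0.0533) or palbociclib replicate 2 (0.0944) the first, and GSK3326595 replicate 2 (0.0582) the second. TXNL1, a thioredoxin bound to the cap, had 36.3 and 38.9 CPM with palbociclib, 51.0 and 63.0 CPM with GSK3326595, and 38.5 and 44.6 CPM with DMSO. It rose with GSK3326595 against DMSO (0.46 ± 0.119, edgeR adjusted p = 0.0205), which was not called without DMSO replicate 1 (0.178) or GSK3326595 replicate 2 (0.135), and was lower with palbociclib than with GSK3326595 (-0.60 ± 0.12, 0.00234). PAAF1, a further base chaperone, was lower with palbociclib than with GSK3326595 (-0.42 ± 0.117, edgeR adjusted p = 0.0159), at 19.03 and 20.35 CPM against 28.59 and 24.04 CPM, with 23.6 and 22.6 CPM in DMSO. That call was lost without palbociclib replicate 1 (0.12), palbociclib replicate 2 (0.0553) or GSK3326595 replicate 1 (0.144).

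Of the 8 genes of the transcriptional recovery response, 3 rose with palbociclib against DMSO and none fell. That is 37.5% called, where 39.5% of all genes were called and 19.3% were called higher. NFE2L1 had 312 and 319 CPM with palbociclib, 240 and 264 CPM with GSK3326595, and 240 and 259 CPM with DMSO. It rose with palbociclib (0.34 ± 0.0892, edgeR adjusted p = 0.0097). In the same comparison edgeR called 10 of the 43 subunits lower and 1 higher, beside 20.2% and 19.3% of all genes. NFE2L1 was also higher with palbociclib than with GSK3326595 (0.32 ± 0.0893, 0.0147). The rise against DMSO was not called without DMSO replicate 1 (0.0936), palbociclib replicate 1 (0.0565) or palbociclib replicate 2 (0.0827), and the difference between the inhibitors without palbociclib replicate 1 (0.0795), palbociclib replicate 2 (0.11) or GSK3326595 replicate 1 (0.0906). NFE2L1 is regulated mostly after translation, by the deglycosylase NGLY1 and the protease DDI2, whose mRNAs were not called in either comparison with DMSO (0.10 and 0.06 with palbociclib, 0.07 and 0.10 with GSK3326595 on the log2 scale).

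The small MAF proteins that pair with NFE2L1 differed among themselves. MAFG had 109 and 106 CPM with palbociclib, 68.7 and 71.4 CPM with GSK3326595, and 83.94 and 89.99 CPM with DMSO, with no overlap among the groups. It rose with palbociclib (0.30 ± 0.0807, edgeR adjusted p = 0.0103), fell with GSK3326595 (-0.31 ± 0.082, 0.021) and differed between them (0.62 ± 0.0816, 0.000169). The rise was not called without DMSO replicate 1 (0.108), palbociclib replicate 1 (0.0957) or palbociclib replicate 2 (0.0595), and the fall without DMSO replicate 2 (0.154), GSK3326595 replicate 1 (0.0819), palbociclib replicate 1 (0.0518) or palbociclib replicate 2 (0.0522), or in a fit of the 2 groups alone (0.051). MAFK had 60.7 and 64.7 CPM with palbociclib, 46.5 and 56.0 CPM with GSK3326595, and 52.3 and 48.8 CPM with DMSO, and rose with palbociclib (0.31 ± 0.104, edgeR adjusted p = 0.033). It was also higher with palbociclib than with GSK3326595 (0.29 ± 0.105, 0.0487). The call against DMSO was lost without any 1 of its own 4 libraries, DMSO replicate 1 (0.0682), DMSO replicate 2 (0.148), palbociclib replicate 1 (0.0782) or palbociclib replicate 2 (0.192), and that between the inhibitors without palbociclib replicate 1 (0.111), palbociclib replicate 2 (0.245) or GSK3326595 replicate 1 (0.283), with DESeq2 (0.0695) or with no filter on low counts (0.0714).

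The third small MAF gene and the relative of NFE2L1 were lower with palbociclib than with GSK3326595. MAFF had 18.1 and 17.5 CPM with palbociclib, 22.9 and 23.9 CPM with GSK3326595, and 19.8 and 20.5 CPM with DMSO (-0.40 ± 0.108 between the inhibitors, edgeR adjusted p = 0.0139). NFE2L3 had 59.9 and 56.3 CPM with palbociclib, 74.3 and 78.1 CPM with GSK3326595, and 58.0 and 64.6 CPM with DMSO. It rose with GSK3326595 against DMSO (0.31 ± 0.0912, edgeR adjusted p = 0.0325) and was lower with palbociclib than with GSK3326595 (-0.39 ± 0.0911, 0.00583). The MAFF call was lost without palbociclib replicate 1 (0.0697), palbociclib replicate 2 (0.106) or GSK3326595 replicate 2 (0.0595), and with DESeq2 (0.0581). The NFE2L3 rise was not called without DMSO replicate 1 (0.299), DMSO replicate 2 (0.0554), palbociclib replicate 1 (0.0628), palbociclib replicate 2 (0.063) or GSK3326595 replicate 2 (0.117), with DESeq2 (0.0553) or in a fit of the 2 groups alone (0.0575), and its difference between the inhibitors without palbociclib replicate 2 (0.0782).

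Among 18 genes that deliver ubiquitinated proteins or recycle ubiquitin, 4 rose and 6 fell with palbociclib, and 1 rose and 2 fell with GSK3326595. These are 55.6% and 16.7% called against DMSO, beside 39.5% and 18.8% of all genes. SQSTM1, the autophagy receptor also called p62, had 1212 and 1186 CPM with palbociclib, 611 and 745 CPM with GSK3326595, and 705 and 725 CPM with DMSO. It rose with palbociclib (0.75 ± 0.113, edgeR adjusted p = 0.000298) and was not called with GSK3326595 (-0.08 ± 0.113, 0.679). The cap deubiquitinase gene UCHL5 had 87.5 and 85.6 CPM with palbociclib, 98.2 and 104 CPM with GSK3326595, and 114 and 128 CPM with DMSO, and fell with palbociclib (-0.48 ± 0.0855, edgeR adjusted p = 0.000893). UBA6, a ubiquitin-activating enzyme gene, fell with palbociclib (-0.42 ± 0.08, edgeR adjusted p = 0.0014) and with GSK3326595 (-0.32 ± 0.0802, 0.0163), at 104 and 96.4 CPM and at 107 and 108 CPM against 132 and 136 CPM in DMSO. The second UBA6 call was lost without DMSO replicate 2 (0.0959) or GSK3326595 replicate 1 (0.0506). NPLOC4, a cofactor of the segregase VCP, had 268 and 281 CPM with palbociclib, 199 and 202 CPM with GSK3326595, and 252 and 268 CPM with DMSO. It fell with GSK3326595 (-0.38 ± 0.0842, edgeR adjusted p = 0.00956), which was not called without DMSO replicate 2 (0.0744), and was higher with palbociclib than with GSK3326595 (0.45 ± 0.0841, 0.00151).

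**Figure D5:**
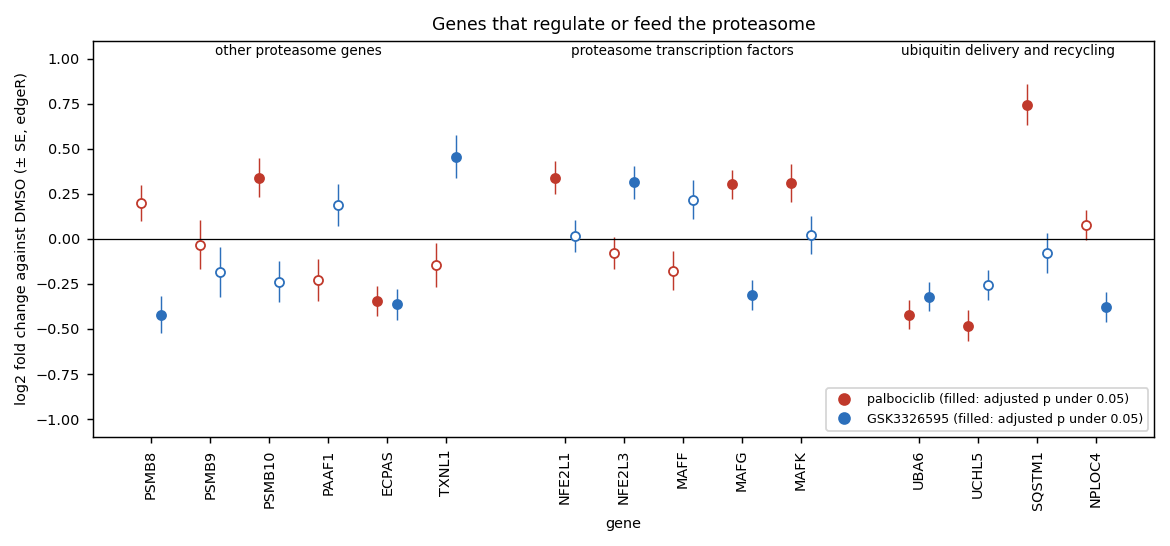
The vertical axis is the log2 fold change against DMSO (± SE, edgeR) of genes named from the 3 lists, with palbociclib in red and GSK3326595 in blue; filled circles have an adjusted p under 0.05. Among the genes drawn SQSTM1 at 0.75 is the furthest from 0 with palbociclib, and MAFG lies on opposite sides of 0 with the 2 inhibitors.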

How the data were processed

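The authors deposited raw counts, 1 table a library, with a whole number of reads for every NCBI Gene ID. Tools named in the submitters' processing notes are CASAVA 1.8.2, HISAT2, cutadapt 1.7, limma and featureCounts 1.6.2, with the hg38 build. Which annotation, strand option and multi-mapping rule were used is not given in the sources used. Genes that overlap others (14 of the 45 subunits have exon overlap in GENCODE) and genes with pseudogene copies are therefore uncertain. Symbols came from the RefSeq table of GRCh38.p14, which matched 27745 IDs and left 650 unmatched.

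The counts were analysed with edgeR 4.0.16 in R 4.3.3. The filterByExpr step with a minimum count of 10 kept 16381 genes. TMM-scaled counts of all 6 libraries were fitted with 1 coefficient per group (3 residual degrees of freedom) and tested with a two-sided quasi-likelihood F test and Benjamini-Hochberg adjustment. The SE of a log2 fold change was taken as its size over the root of F. DESeq2 1.42.0, other scalings and filters, a replicate block and leaving out each library were alternatives. The libraries of a group differed by more than sampling noise (chi-square per degree of freedom of 5.12, 9.9 and 7.76 for palbociclib, GSK3326595 and DMSO). The scripts were tested on simulated data.

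The members, lists and tests were chosen with earlier results of these data known. Values are given in full for subunits called in at least 1 comparison with an absolute log2 fold change of at least 0.32, for PSMB5, PSMB6 and PSMB7, for NFE2L1, PSMB8, PSMB9 and PSMB10, and for up to 5 called genes per list. PSMA6, PSMD11 and PSMG3, called with smaller changes, were given in full after their values were seen, as were the uncalled subunits whose levels are printed. Some genes of the ubiquitin list are counted there but are not reported here by name.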

Additional observations from a re-analysis of the deposited data

Results flagged for a closer look

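In 8 of the 80 subunit and pathway genes tested (10%), and in 1503 of all 16381 genes (9.18%), both palbociclib libraries lay on 1 side of both DMSO libraries, both GSK3326595 libraries lay on the other side, and edgeR called the direct difference between the inhibitors after Benjamini-Hochberg adjustment. Among the 43 subunits 1 met this (2.33%), PSMD9, with a log2 fold change of palbociclib over GSK3326595 of 0.58. The immunoproteasome genes PSMB8 (0.62) and PSMB10 (0.58), the small MAF gene MAFG (0.62), the VCP cofactor gene NPLOC4 (0.45) and UBA1 (0.39), the main ubiquitin-activating enzyme gene, were likewise higher with palbociclib and lower with GSK3326595. UBA1 had 746 and 755 CPM with palbociclib, 552 and 591 CPM with GSK3326595, and 592 and 613 CPM with DMSO. For NPLOC4 with palbociclib (268.35 against 268.31 CPM for the nearest libraries) and UBA1 with GSK3326595 (591.1 against 592.0 CPM) the gap to DMSO was narrow, and neither difference from DMSO was called. The UBA1 call between the inhibitors was lost without palbociclib replicate 1 (edgeR adjusted p = 0.059) or palbociclib replicate 2 (0.0681). The small MAF gene MAFF (-0.40) and the base chaperone gene PAAF1 (-0.42) had the reverse order. Of all these genes, only MAFG was called by edgeR against DMSO with both inhibitors. PSMB8 and NPLOC4 were called against DMSO with GSK3326595 alone, and PSMB10 and UBA1 with palbociclib alone. PSMD9, MAFF and PAAF1 were called against DMSO with neither inhibitor.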

How the results depend on the processing

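No called difference changed sign under the 13 alternatives, but few calls survived all of them: 2 of 27 subunit calls and 12 of 38 pathway calls. Uncalled differences could change sign, and so could the subunit median. With palbociclib against DMSO that median was -0.11, and 0.01 without DMSO replicate 2. With GSK3326595 it was 0.02, and -0.10 without DMSO replicate 1 or GSK3326595 replicate 2. With palbociclib against DMSO the 11 subunit calls became 7 with DESeq2 size factors and 6 with DESeq2, the 10 lower ones 6 and 5, and the 1 higher call 0 without a filter on low counts. Between the inhibitors the 14 subunit calls became 8 and 7 and the 13 lower ones 7 and 6 under the same 2 settings. Library totals gave 4 subunit calls with GSK3326595 in place of 2, 1 of them lower, and 8 lower pathway genes between the inhibitors in place of 5. Fitting the 2 groups alone left 2 of 4 higher pathway calls with GSK3326595. Adding the replicate number as a block gave 22 subunit calls with palbociclib (4 higher, 18 lower), 14 with GSK3326595 (8 higher, 6 lower) and 23 between the inhibitors (4 higher), where 53.2%, 35.2% and 48.3% of all genes were called with the block and 51.2%, 32.6% and 53.5% of the subunits, and for the pathway genes 15 calls with GSK3326595 (9 lower) and 9 lower between the inhibitors. Deviations of same-numbered libraries from their group means correlated over all genes at 0.341 (GSK3326595 and DMSO), 0.179 (palbociclib and DMSO) and 0.140 (palbociclib and GSK3326595), but with 2 libraries a group and no label behind the numbers the pairing is not established. Leaving out each library gave, for subunits with palbociclib against DMSO, 2 to 16 calls (higher 0 to 2, lower 0 to 15, with 0 lower without DMSO replicate 2); with GSK3326595, 1 to 4 (higher 0 to 4, lower 0 to 2); and between the inhibitors, 3 to 17 (higher 1 to 2, lower 2 to 16). For pathway genes the ranges were 6 to 16 (higher 2 to 9, lower 4 to 7), 2 to 8 (higher 0 to 6, lower 0 to 5) and 8 to 14 (higher 5 to 10, lower 2 to 7). A group left with 1 library is assumed to vary like the others. The cause of these shifts was not tested. PSMG4, the tested subunit with the fewest reads, had between 219 and 306 of them in a library.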

Other observations

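Summed over the 45 genes, levels were 5050 and 5396 CPM with palbociclib, 5128 and 6044 CPM with GSK3326595, and 5073 and 5909 CPM with DMSO. The groups overlapped, and the gap between the libraries of GSK3326595 or of DMSO was wider than any gap between group means.

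RAD23B, a shuttle that carries ubiquitinated proteins to the cap, had 186 and 183 CPM with palbociclib, 210 and 236 CPM with GSK3326595, and 238 and 283 CPM with DMSO. It fell with palbociclib against DMSO (-0.50 ± 0.101, edgeR adjusted p = 0.00203), a call kept under all 13 alternatives. The gene was chosen after its values were seen.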
